A study of Rattus norvegicus with 16 samples.

Results

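Microglial and complement genes are described here in the spinal dorsal horn of rats. They are 7 genes, chosen by symbol: C1qa, C1qb, C1qc, Ctss, Cx3cr1, Csf1r and Sirpa. By the choice of genes, all 7 had a row among the 8671 genes of a deposited RNA immunoprecipitation (RIP) table. Of the 7, 5 had a peak among the 29990 genes named in at least 1 of 6 lists of ac4C peaks. ac4C stands for N4-acetylcytidine, a cytidine that carries an acetyl group. The ac4C data compared wild-type (WT) rats with bone cancer pain (CIBP, for cancer-induced bone pain) and normal WT rats, the controls, with 3 replicates each that the labels call biological, and every replicate was an immunoprecipitated (IP) library set against its own input of total RNA. The RIP data came from bone cancer pain alone, with 2 IP and 2 input libraries, also from WT rats; IP and input of the same replicate number are called a pair here. Tumour cells, time after surgery, sex and age, and whether a replicate held 1 rat or several, are not given in the sources used here. The protocol text names an ac4C kit for all 16 samples, and no target is stated for the RIP antibody. The bone cancer pain peak lists carry the letters CFA in their names while the labels say CIBP; the groups follow the labels.

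Microglia are the resident immune cells of the spinal cord and respond to nerve injury and to bone tumours. They make most of the C1q of the central nervous system, the protein that starts the classical complement pathway and that tags synapses for removal. They also exchange signals with neurons: cathepsin S cleaves the neuronal chemokine fractalkine (Cx3cl1), which acts on the microglial receptor Cx3cr1, while Csf1 from sensory neurons acts on Csf1r, and Cd47 on neighbouring cells restrains phagocytosis through Sirpa.

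The whole dorsal horn was sampled, so the microglial origin of the RNA rests on the genes' known expression. Sirpa is also known in neurons. Among the marker lists, 9 of 9 astrocyte, 9 of 9 oligodendrocyte and 6 of 9 neuronal genes had a row in the RIP table. Of 34 further microglial genes, 14 had a row, among them P2ry12, Gpr34, Sall1 and Tyrobp, while the defining markers Aif1, Itgam, Tmem119, Trem2 and Cd68 had none. Of 15 genes of perivascular macrophages and monocytes 3 had a row, Cd74, Lyz2 and RT1-Da. A gene without a row may have missed the authors' threshold or have had low signal, so its level is not known here. Peak lists hold no transcript levels, and in bulk tissue more microglia and more RNA per microglial cell cannot be told apart.

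A short sequence recurred near the gene starts. Of the 7 genes, 5 had an entry in the RefSeq promoter table (build GRCr8; 250 bases before to 50 after the gene start). The letters GGAAGT, searched on both strands (ACTTCC on the other), occurred in 4 of these 5: C1qa, C1qb, Ctss and Cx3cr1, but not in Csf1r. They hold the GGAA core that PU.1, the transcription factor of the myeloid lineage, and other ETS factors bind. In all, 22.6% of the 33469 promoters of 300 bases held them. The letters were chosen after these promoters had been read, and a match is a description of sequence, not of binding. The windows of 30 bases below run 5′ to 3′ along the gene, with the match in capitals. They show where the letters lie in these 4 genes, in Cx3cr1 downstream of the gene start.
C1qa, chr5:154420023-154420052, minus strand: gtctggccctggGGAAGTtcgggggtagat
C1qa, chr5:154419995-154420024, minus strand: attccaagaaggGGAAGTggatgtgaaact
C1qb, chr5:154407871-154407900, minus strand: acaggacctgaaACTTCCtgatggcagcag
Ctss, chr2:185775367-185775396, plus strand: aaatgaaagttcACTTCCtcgttgtggata
Cx3cr1, chr8:128677026-128677055, minus strand: tgagtggctggcACTTCCtgcagaagtccc
Counted from the gene start, the match began at base -107 and at base -79 in C1qa, at -61 in C1qb and at -17 in Ctss. In Cx3cr1 it began at base 24 downstream of the start. In the RefSeq gene table of the same build, the 3 C1q genes were neighbours on chromosome 5 in the order C1qb, C1qc, C1qa, with 0 other protein-coding genes between them, flanked by Ephb2 and Epha8.

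The first comparison set RIP IP against input in bone cancer pain. Every row of that table had passed the authors' threshold, a log2 fold above 1 (the lowest was 1.01) and a p-value no higher than 0.0488, so higher signal in the IP is a condition of having a row and not a finding about these genes. In all 7 genes both IP libraries were above both inputs, as in 8669 of the 8671 rows (100% after rounding). Only genes with a row could be among the 7, so that none lay outside the threshold is no result. Of the 7, the gene nearest to the threshold was Sirpa. What the table can show is how strongly each gene was enriched relative to the other rows. Signal is the deposited value per library, whose unit the header does not give. Levels of these genes are therefore compared between libraries and not with each other. Mean signal served otherwise only to choose rows for comparison and to describe rows with and without a peak.

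C1qa (ENSRNOG00000012807), C1qb (ENSRNOG00000012749) and C1qc (ENSRNOG00000012804) encode the 3 chains of C1q. C1qa had a signal of 29.5 and 25.8 in the IP libraries 1 and 2, against 2.46 and 3.49 in their inputs. C1qb had 18.9 and 20.4 in the IP libraries, against 2.58 and 2.60 in the inputs. C1qc had 23.4 and 22.3 in the IP libraries, against 2.63 and 4.14 in the inputs. For each chain the 2 IP libraries lay close together and far above the inputs, and the wider scatter was between the inputs of C1qa and C1qc. The ratio of IP to input was accordingly 11.99 and 7.39 for C1qa, 7.33 and 7.87 for C1qb and 8.93 and 5.38 for C1qc in pairs 1 and 2. In the authors' deposited table the log2 folds were 3.21 for C1qa (false discovery rate, FDR, 1.41e-46), 2.92 for C1qb (FDR 1.15e-36) and 2.75 for C1qc (FDR 1.70e-32).

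Ctss (ENSRNOG00000021157) encodes cathepsin S, a lysosomal cysteine protease that stays active outside the cell. It had a signal of 72.8 and 72.6 in the IP libraries, against 8.09 and 7.13 in the inputs. The 2 pairs gave log2 ratios of 3.17 and 3.35, and the authors' deposited table gave a log2 fold of 3.26 (FDR 2.19e-128). That was rank 211 of 8671 rows, the first place among the 7 genes.

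Cx3cr1 (ENSRNOG00000018509) encodes the G protein-coupled receptor of fractalkine. Its signal was 19.8 and 19.2 in the IP libraries, against 2.54 and 2.12 in the inputs, with log2 ratios of 2.97 and 3.18 in pairs 1 and 2. The authors' deposited table gave it a log2 fold of 3.07 (FDR 1.08e-46). Csf1r (ENSRNOG00000018414), the receptor tyrosine kinase on which microglia depend for survival, had 28.3 and 30.2 in the IP libraries, against 3.89 and 4.60 in the inputs. Its log2 ratios were 2.86 and 2.72, and its log2 fold in the authors' deposited table was 2.78 (FDR 6.07e-111). The log2 ratio of IP to input differed between the pairs by 0.21 for Cx3cr1 and by 0.15 for Csf1r.

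Sirpa (ENSRNOG00000004763) encodes signal-regulatory protein alpha, the inhibitory receptor of Cd47, and it was enriched least. Its signal was 28.9 and 29.2 in the IP libraries, against 8.74 and 9.30 in the inputs, or 3.30 and 3.14 times the input. The log2 fold was 1.69 in the authors' deposited table (FDR 8.82e-64), rank 7929 of 8671 rows. Its ratio lay below that of every other member in both pairs, by 1.14 (to Csf1r, pair 1) and 0.78 (to C1qc, pair 2) on the log2 scale.

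**Figure D1:**
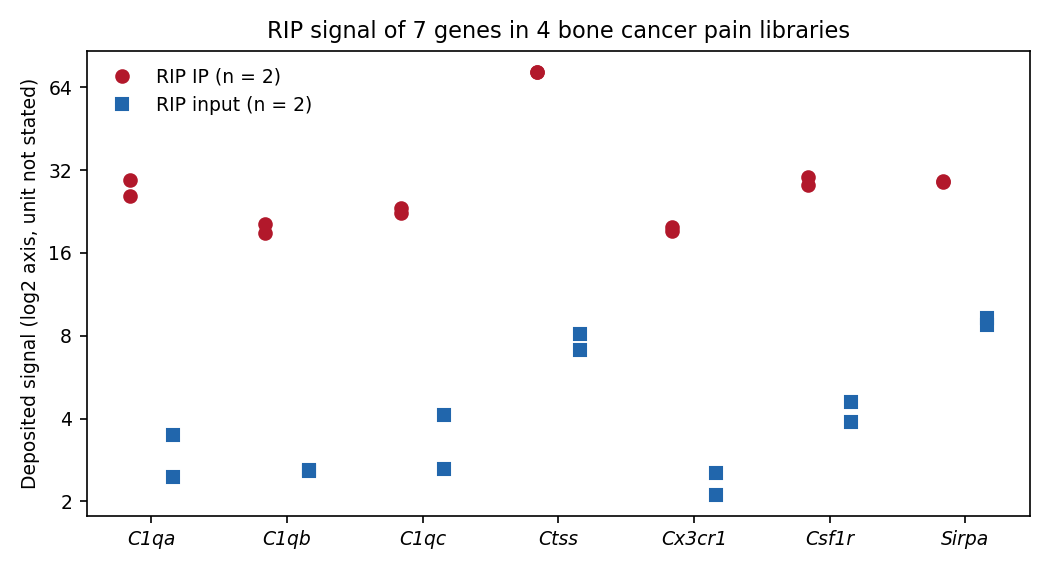
Deposited RIP signal (log2 axis, unit not stated) of each gene in the 2 IP libraries (circles) and the 2 input libraries (squares) of bone cancer pain. The IP values lie above the inputs in all 7 genes, with the smallest distance in Sirpa, and the inputs of C1qa and C1qc are farther apart than their IP values.

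Relative to the table, 6 of the 7 genes were enriched more than the median row, whose log2 fold was 2.40 in the authors' deposited table. By construction the rows lie evenly above and below it. The median of the 7 genes was 2.92, and it was 2.97 in pair 1 and 2.89 in pair 2, where the medians of all rows were 2.45 and 2.37. Rows whose mean input lay within the range of the 7 genes (2.33 to 9.02, 4594 rows) also centred on 2.40, by the log2 folds of the authors' deposited table. By percentile among all rows, Ctss stood at 97.6, C1qa at 96.9, Cx3cr1 at 93.7, C1qb at 88.5, Csf1r at 80.5, C1qc at 78.3 and Sirpa at 8.56. The genes were chosen with these values known, so this position carries no test. Of the marker lists of other cells, the 9 oligodendrocyte genes had a median log2 fold of 3.26, with 9 above the table's median. The 9 astrocyte genes had 2.44, with 5 above it, and the 6 neuronal genes with a row 2.14, with 1 above it.

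The order among the 6 higher genes was not stable. The pairs disagreed by 0.70 (log2) for C1qa and by 0.73 for C1qc, but by 0.07 to 0.21 for the other members. For rows of like input the median disagreement was 0.24 and the 90th percentile 0.69. Ctss minus C1qa was -0.41 in pair 1 and 0.46 in pair 2. C1qa and Cx3cr1, and Csf1r and C1qc, also changed places between the pairs. Cx3cr1 stood above C1qb in both pairs, but by 0.09 and 0.20 only, and C1qb above Csf1r by 0.01 and 0.26. Only the gap to Sirpa, among neighbours in the order, was larger in both pairs than the 90th percentile of the disagreement.

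**Figure D2:**
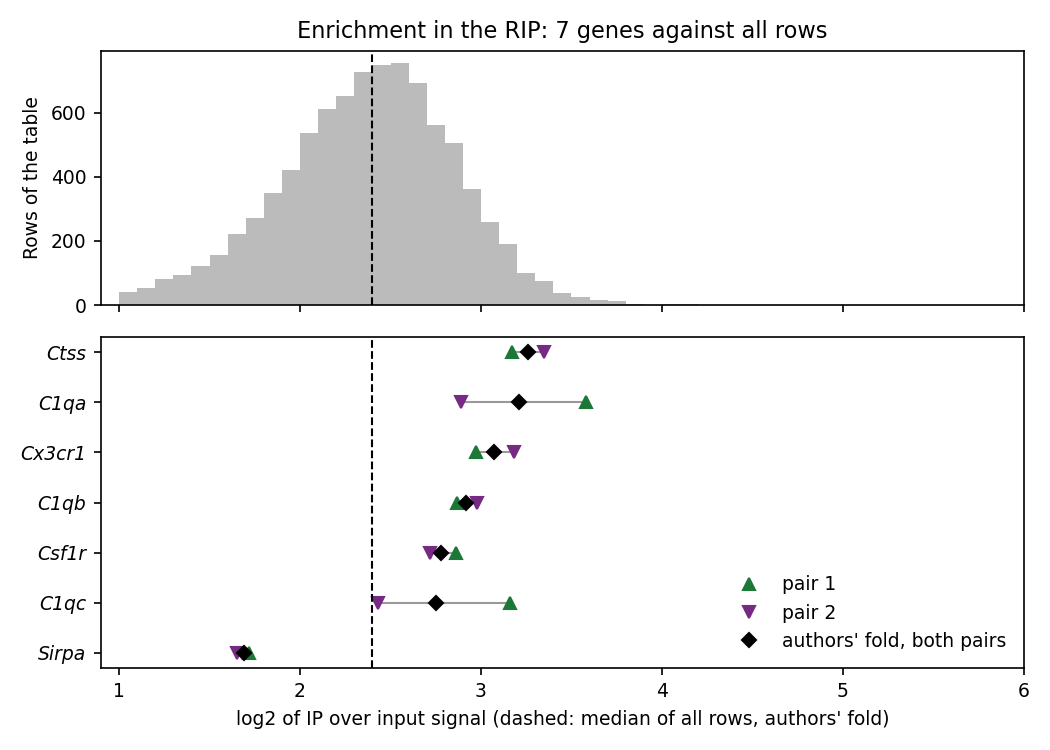
Top, number of table rows by log2 fold of IP over input, as the authors gave it. Bottom, the 7 genes with the log2 ratio in pair 1 and pair 2 (triangles) and the authors' fold over both pairs (diamonds); the dashed line is the median of all rows, 2.40. Sirpa lies far to its left in both pairs, the other 6 genes to its right, and the pairs are widest apart in C1qa and C1qc.

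The genes with the RIP profile most like that of the C1q chains were not immune genes by name. Likeness was the Euclidean distance, over the 4 RIP libraries, between a gene's log2 signal centred on its own mean and the mean centred profile of the 3 C1q chains. Among 4265 genes with a mean signal above the table's median the nearest were Plekhh1 (distance 0.023), Cdipt (0.036), Ube3c (0.039), Gnb4 (0.048) and Rpl5 (0.050). Cdipt makes phosphatidylinositol, Ube3c is a ubiquitin ligase, Gnb4 a G protein subunit and Rpl5 a ribosomal protein. The chains themselves lay at 0.268 to 0.299 from their own mean, and the median gene at 0.587. With 4 libraries the profile holds little more than the enrichment and the disagreement between pairs.

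Further genes of the pathways divided around the table's median. Of 29 other complement genes, C1q-like genes included, 10 had a row, with a median log2 fold of 2.51 in the authors' deposited table, and 5 of the 10 lay above the table's median. The serine proteases of the C1 complex, which C1q activates, had 2.15 (C1r) and 2.73 (C1s), the central component C3 had 2.38, the C1 inhibitor Serping1 2.31 and clusterin (Clu), which restrains the terminal complex, 2.97 in the authors' deposited table. The 14 microglial genes outside the members had a median of 2.29, and 6 of the 14 lay above the table's median. In the authors' deposited table Rgs10 (2.83), Tyrobp (2.70) and Laptm5 (2.64) were highest and Cd53 (1.05), Olfml3 (1.31) and P2ry13 (1.94) lowest among them. The difference between this list and the 7 genes was not tested.

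The lysosomal proteases that act beside Ctss lay higher. All 7 of them with a row, of 11 listed, exceeded the table's median, with a median log2 fold of 3.04 in the authors' deposited table. Ctsl (3.33), Ctsh (3.24) and Ctsd (3.13) were highest and Ctsb (2.53), Ctsf (2.59) and Ctsa (2.97) lowest in the authors' deposited table. Cst3, cystatin C, the secreted inhibitor of cathepsins, had 2458 and 2530 in the IP libraries, against 246 and 277 in the inputs, and a log2 fold of 3.26 in the authors' deposited table.

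Of the 3 ligands, 2 had a lower fold than their receptor; the differences were not tested. In the authors' deposited table Cx3cl1 had a log2 fold of 2.27 and its receptor Cx3cr1 3.07, and Csf1 had 2.39 and its receptor Csf1r 2.78. Cd47 (1.92) stood above its receptor Sirpa (1.69). The sheddases Adam10 and Adam17, which release fractalkine from the membrane, had 2.75 and 3.04, and Ptpn11, a tyrosine phosphatase that Sirpa recruits, had 3.01.

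**Figure D3:**
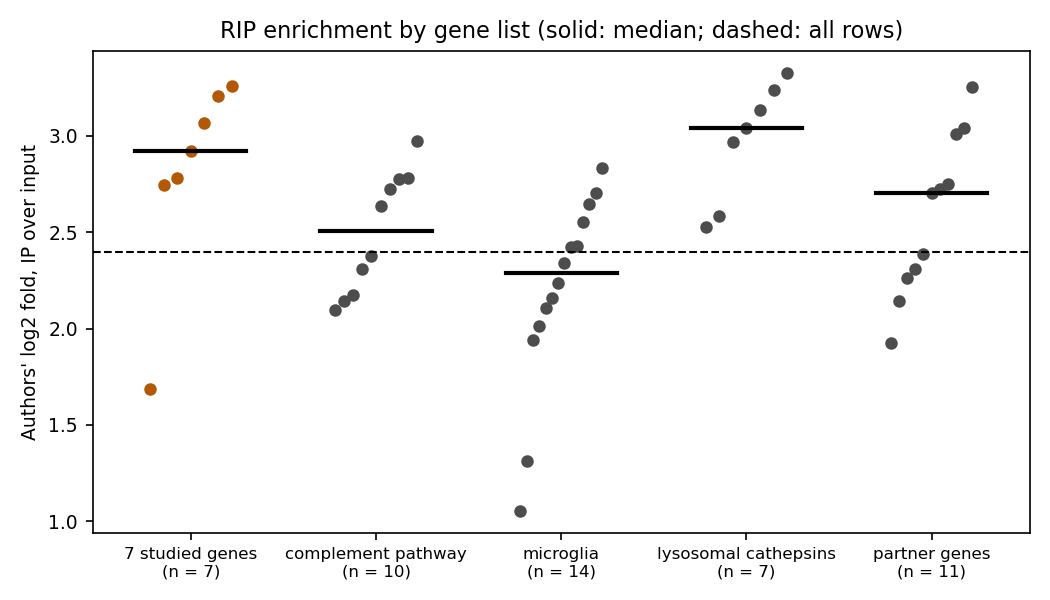
Authors' log2 fold of IP over input for the 7 genes and for the genes of 4 lists with a row in the table (members left out; C1r, C1s, Serping1 and Tyrobp are in 2 lists). Points are genes, solid bars medians and the dashed line the median of all rows. The medians are 2.92 for the 7 genes, 2.51 for complement, 2.29 for microglia, 3.04 for the cathepsin list and 2.70 for the partner genes.

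The second comparison set ac4C peaks in bone cancer pain against controls. As deposited, all 3 bone cancer pain lists and none of the 3 control lists held a Sirpa peak, a state found for 0.911% of the RIP table's rows. Cx3cr1 and Csf1r were each listed in 2 bone cancer pain lists and in no control list. C1qc had peaks in 1 bone cancer pain list, Ctss in 1 control list, and C1qa and C1qb in none of the 6, like 9.63% of the rows. Gained is used below for genes that 2 or more bone cancer pain lists and 0 control lists name, and lost for the reverse. By that rule 3 of the 7 genes were gained (42.9%), beside 11.3% of the rows of the RIP table and 4.41% of all genes with a peak, and 0 were lost, beside 0.738% of the rows and 0.220% of all genes with a peak. In all, 4 of the 7 genes were named by some bone cancer pain list, beside 86.7% of the rows, and 1 of the 7 by some control list, beside 31.2%. With peaks at an FDR of at most 0.05, only Sirpa was gained, 1 of 7, beside 1.80% of the rows, and 0 were lost, beside 1.71%. No member had such peaks in all 3 bone cancer pain lists and in no control list, beside 0.104% of the rows. Under the limit 1 of the 7 genes was named by some bone cancer pain list (beside 23.2% of the rows), 1 by some control list (22.7%) and 5 by none of the 6 (63.2%).

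No member passed a test. Two-sided Fisher's exact test on the number of lists gave p = 0.10 for Sirpa, the smallest p that 3 lists against 3 allow, and p = 0.400 for Cx3cr1 and Csf1r. After Benjamini-Hochberg adjustment over all 29990 genes with a peak the exact test gave an adjusted p of 1.00 for each, and 0 genes of the series had an unadjusted p under 0.05. Sirpa had 2, 2 and 1 peaks in the bone cancer pain lists and 0, 0 and 0 in the control lists, a mean of 1.67 ± 0.58 against 0.00 ± 0.00 (SD, n = 3; two-sided exact permutation test, p = 0.10).

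Bone cancer pain list 1 stood apart and touched 4 of the 7 genes. It held 50417 peaks and named 29130 genes, while the other 5 lists held 1173 to 2416 peaks. A single set of values, a fold of 10.6 at p = 0.0370 and FDR 0.0562 in the authors' list, stood at 97.4% of them. All 8 member peaks of that list, 2 each in Sirpa, C1qc, Cx3cr1 and Csf1r, were of this kind. A peak in that list was shared by 81.1% of the RIP table's rows, so its absence from C1qa, C1qb and Ctss was the less common state. Without that list Sirpa alone was gained, beside 1.18% of the rows, and without bone cancer pain list 2 again Sirpa alone, beside 3.92%.

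The counts per list were small otherwise. Members with a peak numbered 4, 3 and 1 of 7 in bone cancer pain lists 1, 2 and 3, beside 81.1%, 19.9% and 9.88% of the RIP table's rows. They numbered 0, 1 and 0 of 7 in control lists 1, 2 and 3, beside 10.5%, 15.6% and 12.6% of the rows. In all, the 7 genes had 13 peaks in the bone cancer pain lists and 2 in the control lists, of which 3 and 2 had an FDR of at most 0.05. Over all genes, bone cancer pain lists 1, 2 and 3 held 50417, 2416 and 1173 peaks. Control lists 1, 2 and 3 held 1208, 1802 and 1418. With an FDR of at most 0.05 these totals were 919, 1240 and 899 in bone cancer pain, and 916, 1074 and 1003 in controls. With that limit the members numbered 0, 1 and 1 in bone cancer pain lists 1, 2 and 3, beside 8.59%, 11.3% and 7.85% of the rows, and 0, 1 and 0 in control lists 1, 2 and 3, beside 8.23%, 9.58% and 9.31%. A single gene is 14.3% of the 7, so these shares move in coarse steps.

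**Figure D4:**
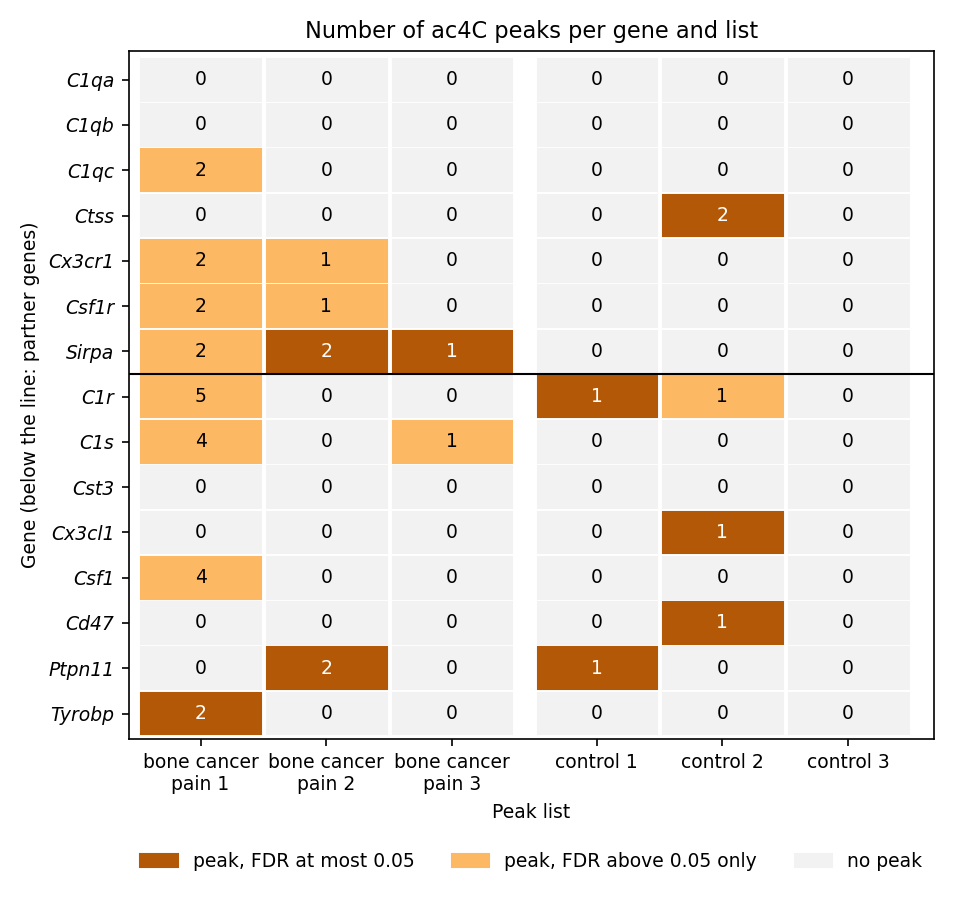
Number of ac4C peaks of each gene in the 3 bone cancer pain lists (left) and the 3 control lists (right); dark tiles hold a peak with an FDR of at most 0.05, light orange tiles only peaks above it. Dark tiles of the 7 genes occur in Sirpa (bone cancer pain 2 and 3) and in Ctss (control 2) alone; the genes below the line are partners of the 7.

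Sirpa carried the peak with the highest fold among the 15 of these genes. Coordinates are those of the files (build rn6, as the submitters' processing notes name it), and fold, p-value and FDR are the authors' own for each peak. On the plus strand of chromosome 3, bone cancer pain 3 had 1 peak from 122152268 to 122152447 with a fold of 155 and an FDR of 5.01e-50. Bone cancer pain 2 had a peak from 122151195 to 122151374 with a fold of 41.8 and an FDR of 4.47e-07. A second peak of bone cancer pain 2, in 2 exon blocks from 122131271 to 122135990, had a fold of 5.63 and an FDR of 5.25e-10. Bone cancer pain 1 had a peak from 122151761 to 122151881 and one in 3 blocks from 122114108 to 122130943, both at the recurrent fold of 10.6.

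The 3 single-block peaks of Sirpa, 1 per bone cancer pain list, lay within 1253 bp of each other but shared no base: 386 bp separated the peak of list 2 from that of list 1, and again 386 bp the peak of list 1 from that of list 3. Of all 12 pairs of peaks of 1 gene in different lists, over Sirpa, Cx3cr1 and Csf1r, 1 pair overlapped. Exon and UTR positions of the peaks were not analysed here, since no rn6 annotation was used.

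That 1 pair was in Cx3cr1, on the minus strand of chromosome 8. The peak of bone cancer pain 1 ran from 128741463 to 128741580 and that of bone cancer pain 2 from 128741463 to 128741639, so they had the same lower-coordinate edge, the 3′ end on this strand, and shared 118 bp, the whole of the shorter peak. The fold was 10.6 in list 1 and 15.7 in list 2, with FDRs of 0.0562 and 0.127, so neither was below 0.05. List 1 held a further Cx3cr1 peak from 128740992 to 128741227.

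**Figure D5:**
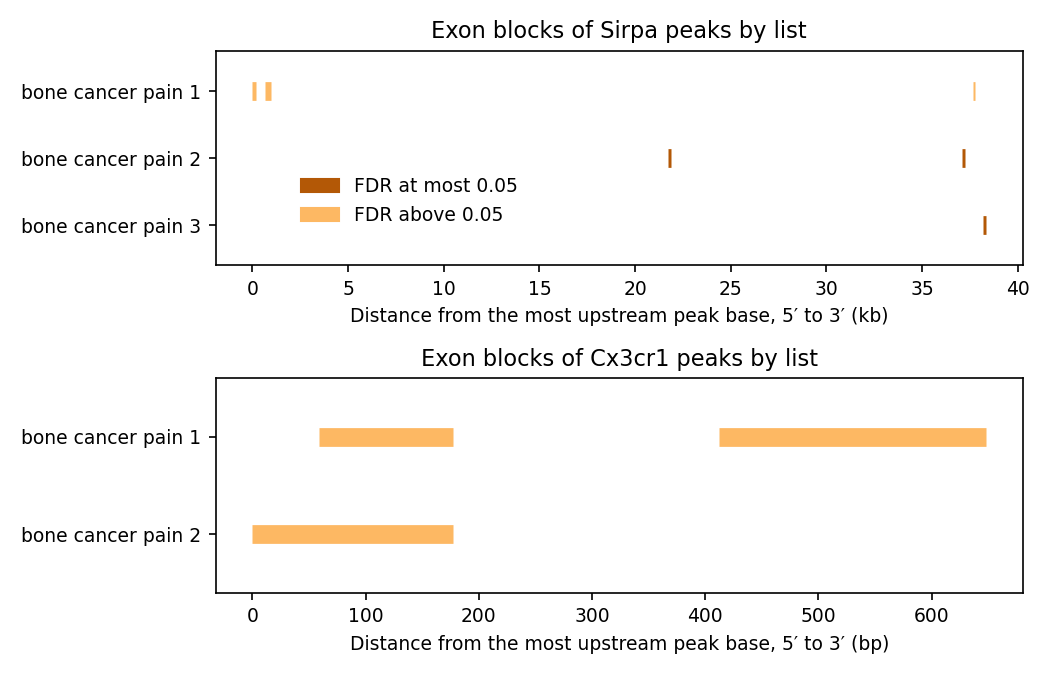
Exon blocks of the Sirpa peaks (top, distance in kb) and Cx3cr1 peaks (bottom, distance in bp), measured 5′ to 3′ from the most upstream base of any peak of the gene, 1 row per bone cancer pain list with a peak; dark blocks have an FDR of at most 0.05. The single-block Sirpa peaks of the 3 lists cluster within 1253 bp without overlap, and the Cx3cr1 peaks of lists 1 and 2 share 118 bp.

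No peak of Csf1r or C1qc had an FDR of at most 0.05. On the plus strand of chromosome 18, Csf1r had 1 peak in bone cancer pain 2, from 56457701 to 56457851, with a fold of 10.5 and an FDR of 0.127. Its 2 peaks in list 1, from 56414488 to 56431846 and from 56444870 to 56446271, were spliced over 2 blocks each and lay at least 11429 bp away from it. C1qc had 2 peaks in list 1 on the minus strand of chromosome 5, from 155255240 to 155255476 and from 155257912 to 155258392. C1qc was thus the only one of the 3 C1q chains with an ac4C peak in any list, and both of its peaks had the recurrent fold.

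Ctss had its peaks in control 2 alone, so by the rule above it was neither gained nor lost. On the plus strand of chromosome 2, a spliced peak in 2 blocks from 197655850 to 197663107 had a fold of 30.4 and an FDR of 2.51e-17. A second, from 197667457 to 197667636, had a fold of 13 and an FDR of 5.01e-13. Under the FDR limit a peak in control 2 and in no other list was found for 4.36% of the RIP table's rows, and for 1.06% as deposited.

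The ligands Cx3cl1 and Cd47 had the list pattern of Ctss, as did the astrocyte gene Gfap and the neuronal gene Tubb3. Cx3cl1, the chemokine that cathepsin S cleaves, had its peak in control 2 alone, at 10645107 to 10645256 of chromosome 19 (fold 10.9, FDR 1.91e-10). Cd47, the ligand of Sirpa, likewise had its peak in control 2 alone, at 53514773 to 53514921 of chromosome 11 (fold 19.6, FDR 0.0288). For Ctss, named by 0 lists of bone cancer pain and 1 of the controls, Fisher's exact test gave p = 1.00, as deposited and under the FDR limit. Csf1 had 4 peaks, all in bone cancer pain 1 and none with an FDR of at most 0.05, and Cst3 had none in any list.

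As deposited, most of the other complement and microglial genes were named by bone cancer pain list 1, which named 81.1% of all rows. Under the FDR limit their few peaks were spread over both groups. Of the 13 complement genes with a row, C1q included, 11 had a peak in some list as deposited, where 9.63% of all rows had none, and 4 had one with an FDR of at most 0.05, where 63.2% of all rows had none. As deposited, 1 complement gene was gained, beside 11.3% of all rows. It was C1s, with peaks in bone cancer pain 1 and 3, of which that in bone cancer pain 3 had a fold of 17.7 and an FDR of 0.0759. Of the 4 genes under the limit, C3 had such a peak in bone cancer pain 1 (fold 10.6, FDR 0.000162) and in control 2 (fold 54.4, FDR 5.01e-38). C1r had one in control 1 (fold 14.7), Clu in control 3 (fold 2.69), and Calr, a C1q-binding protein, in control 1 (fold 46.4) and control 2 (fold 1.43). That placed Calr among the lost genes under that limit, beside 1.71% of all rows. As deposited, Calr also had a peak in bone cancer pain 2 (fold 6.97, FDR 0.0692) and was not lost. All 14 microglial genes with a row were named by bone cancer pain list 1, beside 81.1% of all rows. Rows named by that list had a lower input in the RIP, with a median of the mean input signal of 2.84, against 8.48 for the other rows. Under the FDR limit 3 of the 14 had a peak anywhere, where 63.2% of all rows had none. Those were Tyrobp in bone cancer pain 1 (fold 39.7), Sall1 in bone cancer pain 1 (fold 233), bone cancer pain 3 (fold 26.5) and control 3 (fold 27.9), and Rgs10 in control 1 (fold 9.35).

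Ptpn11 and 5 of the 8 lysosomal proteases with a row, Ctss included, had a peak under the limit; the other 3, Ctsl, Lgmn and Ctsa, are among the rows with none (63.2% of the table). Ptpn11 had 2 peaks in bone cancer pain 2 (folds 18.0 and 6.53) and 1 in control 1 (fold 20.9). Ctsf, cathepsin F, was gained under the limit, beside 1.80% of all rows. Its peaks lay at different places, from 220114228 to 220114405 in bone cancer pain 2 (fold 88.9) and from 220119769 to 220119946 in bone cancer pain 3 (fold 88.3). Ctsd had peaks in controls 1 and 3 (folds 8.01 and 4.47) and was lost, beside 1.71% of all rows. Ctsb had such peaks in bone cancer pain 2 (fold 4.98) and control 1 (fold 6.70), and Ctsh in bone cancer pain 3 (fold 11.0).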

How the data were processed

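Per the labels, RNA of the rat dorsal horn gave 12 ac4C libraries (3 IP and input pairs in bone cancer pain, 3 in controls) and 4 RIP libraries. The submitters' processing notes name cutadapt 2.5, HISAT2 2.1.0, HOMER 4.10.4, featureCounts 1.6.3, DESeq2 and build rn6, without roles, and no source used here names the peak caller. The deposited peak lists, 1 per pair, hold, for every peak, the authors' fold (ratio) of IP to input, the p-value, and scores that are the log10 of p and FDR. The deposited RIP table gives the authors' log2 fold, p-value and FDR, and 1 signal value per library of unstated unit. Totals per library are not given, so depth is unknown. The members and lists were chosen with earlier results of these data known. Named genes were the 7 members, genes of the partner and complement lists, and the 3 highest and 3 lowest log2 folds of other lists; genes given for their peaks were added after their values were seen.

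Presence of peaks per list was compared by Fisher's exact test over all genes and by exact permutation for 1 gene (Python 3.11.15, scipy 1.17.1, pandas 2.3.3), with the counting rule tested on simulated data. A start is 1-based, the files being in BED form. IP was not tested against input in the RIP table, which holds passing genes only; 2 against 2 could not go below an exact p of 0.333. The Fisher and permutation p-values rest on 3 lists against 3, and whether a list stands for 1 rat or several is not known. P-values and FDRs of single peaks and of RIP rows are the authors' own. Alternatives were peaks with FDR at most 0.05, equal list lengths, fold at least 10, each list left out, single RIP pairs and a pseudocount of 1.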

Additional observations from a re-analysis of the deposited data

How the results depend on the processing

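The 3 gained members became 1, Sirpa, with peaks at an FDR of at most 0.05, with each list limited to its 1173 strongest peaks, and when a peak in 3 lists was required. In these settings 1.80%, 2.00% and 0.91% of all rows were gained, beside 11.3% as deposited. A fold of at least 10 left 3, beside 11.15% of all rows. The recurrent fold of bone cancer pain 1, 10.6, lies above that limit, so the limit could not remove those peaks. Leaving out single lists gave 1 to 3 gained members, with Sirpa alone without bone cancer pain 1 or 2, and 0 lost members each time. The shares of all rows gained were then 1.18%, 3.92% and 8.05% without bone cancer pain 1, 2 and 3. They were 13.34%, 14.32% and 13.70% without control 1, 2 and 3. As deposited, 4 members had a peak in any bone cancer pain list, beside 86.7% of all rows. Under the FDR limit 1 did, beside 23.2%. They numbered 1 at equal lengths and 3 to 4 without single lists. Members with a peak in any control list numbered 0 to 1 without single lists, the 0 without control 2. For members with any peak, no share of all rows is given at equal lengths or without single lists. Member peaks in the bone cancer pain lists fell to 3 under the FDR limit and 3 at equal lengths, against 13 as deposited. Bone cancer pain list 1 as a whole held 50417 peaks as deposited and 919 under the FDR limit. Of the genes with a row, 4 of 13 (complement), 6 of 11 (partners) and 3 of 14 (microglia) had a peak under the FDR limit, where 63.2% of all rows had none. As deposited they numbered 11, 10 and 14, where 9.63% of all rows had none. A pseudocount of 1 lowered the members' median log2 fold to 2.53 and that of all rows to 2.08; single pairs gave 2.89 to 2.97. No member reached a mean input of 10, so ranks above that limit could not be given. Deviations of same-numbered bone cancer pain and control lists had an r of 0.054, 0.022 and 0.024 over genes. Differently numbered lists had -0.046 to 0.021. Under the FDR limit the same-numbered lists had -0.009, 0.004 and -0.006, and the others -0.016 to 0.023. Such small values cannot tell whether same-numbered lists share more than a number. As a replicate block, Sirpa's 3 pairs gave a two-sided exact sign test p of 0.250, the smallest p that 3 pairs allow. The replicate block of the RIP pairs gave a median of 2.93. Depth is unknown throughout.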
